A study of Mus musculus with 4 samples.

Results

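The nuclei described here are the cardiac fibroblast nuclei of the mouse right ventricle (RV). They number 5566 of the 48428 nuclei kept, out of 53090 barcodes in the files. A barcode was kept when it had at least 200 genes and under 10% of its unique molecular identifiers (UMIs) from mitochondrial genes. A kept nucleus was called a fibroblast when Ryr2, the calcium release channel of cardiomyocytes, made up less than 1% of its UMIs, when Pdgfra, Abca8a, C1qtnf7 and Pcsk6 together had at least 4 UMIs with at least 1 from Pdgfra or Abca8a, and when Ptprb, Mrc1, Wt1, Upk3b and Myh11 together had at most 1 UMI. These UMI counts chose the members, so the levels of those genes are given below as a description without a test. The rule found 1073 nuclei in sham library 1, 1670 in sham library 2, 1094 in RVVO library 1 and 1729 in RVVO library 2.

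The samples were single-nucleus RNA libraries (10x 3′ v3 chemistry) from the RV of C57/BL6J mice of WT genotype. The RVVO group had RV volume overload from a fistula between the abdominal aorta and the inferior vena cava made at postnatal day 7, and the sham group had the sham operation. All hearts were collected at postnatal day 21, and each group had 2 libraries. The labels do not say how many mice made up a library, so the p-values below measure only the spread between libraries, which may be technical.

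Fibroblasts are the main matrix-producing cells of the heart. They carry the platelet-derived growth factor receptor Pdgfra, lay down fibrillar and basement membrane collagens, proteoglycans and elastic fibres, and exchange growth factors with cardiomyocytes, endothelial cells and pericytes. After injury or load some of them take on an activated state known for periostin (Postn), smooth muscle actin (Acta2) and fibrillar collagen, and, like most cells, they raise a common set of defence genes when exposed to interferon.

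The fibroblast nuclei held 3593628 and 5241805 UMIs in the sham libraries and 4931809 and 5940316 in the RVVO libraries. The median depth per nucleus was 2875, 2765.5, 4089.5 and 2970 UMIs in sham 1, sham 2, RVVO 1 and RVVO 2, an order kept for every set of 4 values below. The median number of genes per nucleus was 1660, 1630, 2097.5 and 1752. RVVO 1 was thus the deepest library per fibroblast nucleus, and the other 3 were close to each other. The summed UMIs of the 4 positive rule genes had a median of 9, 9, 12 and 9 per nucleus. At the threshold itself, 140, 194, 94 and 188 members had exactly 4 such UMIs, and 148, 223, 82 and 179 nuclei that met every other condition had exactly 3 and were left out. Any pair of libraries shared between 28 and 70 barcodes, at most 0.540% of the smaller library, and at most 2 of the barcodes shared by a pair were fibroblasts in both.

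The levels of the rule genes follow from the rule and are given first as a description. Pdgfra stood at 520, 549, 617 and 627 CPM (UMIs of the gene per 1000000 UMIs, here the plain share) in fibroblast nuclei and at 52.6, 41.6, 78.2 and 55.7 CPM in all other nuclei kept, a ratio of 9.98, and the ratio to endothelial nuclei chosen by a like rule was 44.5. Abca8a, a lipid transporter of the ABC family, had a ratio of 9.43 to all other nuclei and 53.4 to endothelial nuclei. Among genes with at least 20 CPM in every library, the 5 highest ratios were those of Pdgfra, Abca8a, A230001M10Rik (9.35), Hmcn2 (9.21), which encodes a hemicentin of the matrix, and the proprotein convertase gene Pcsk6 (9.16), so 3 of the 5 belong to the rule. Levels of genes outside the rule are given next, also as a description. Negr1, a cell adhesion gene, reached 964, 933, 1250 and 707 CPM against 115, 88.5, 182 and 83.5 CPM elsewhere, a ratio of 8.16. Of the matrix genes, the type VI collagen chain Col6a6 had a ratio of 8.49, tenascin X (Tnxb) 7.35 and Col15a1 7.26. These matrix genes are among the genes of highest ratio in these same data, so they do not check the label. Decorin (Dcn) had a ratio of 4.32, the actin-severing gelsolin (Gsn) 4.45, and Col1a2, a chain of type I collagen, 4.13. Tcf21, the transcription factor of the fibroblast lineage, stood at 25.6, 27.5, 24.5 and 33.0 CPM against 3.92, 2.96, 3.41 and 4.49 CPM elsewhere.

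**Figure D1:**
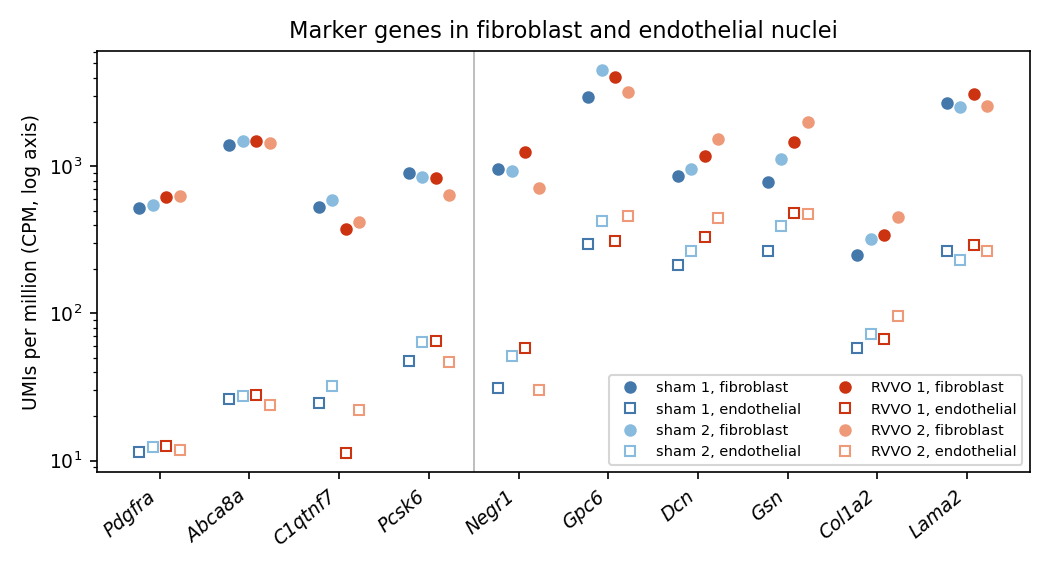
Levels of 10 marker genes (CPM, log axis) in fibroblast nuclei (filled circles) and endothelial nuclei (open squares) of each of the 4 libraries; the 4 genes left of the line chose the fibroblast nuclei. Pdgfra lies between 520 and 627 CPM in fibroblast nuclei and between 11.5 and 12.6 CPM in endothelial nuclei.

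Transcripts of other cell types were present in these nuclei. The 12 cardiomyocyte markers summed to 26937, 15529, 22065 and 22444 CPM, against 33317, 22131, 28939 and 28666 CPM in endothelial nuclei, none was at 0, and the gene with most UMIs was Myh6, the adult cardiac myosin heavy chain. The source of these transcripts was not tested. The 10 endothelial markers summed to 1133, 911, 725 and 848 CPM with most UMIs from Tek, against 7899, 9138, 8792 and 7673 CPM in endothelial nuclei. The 8 pericyte markers summed to 926, 889, 919 and 582 CPM with most UMIs from Abcc9, and the 8 smooth muscle markers to 337, 270, 305 and 191 CPM. Of the smooth muscle list Ntrk3 had most UMIs, at 143, 129, 129 and 62.3 CPM. Ntrk3 was itself higher in these nuclei than in all other nuclei kept (ratio 7.00), so that sum does not measure smooth muscle transcripts. The 12 macrophage markers summed to 415, 444, 350 and 512 CPM with most UMIs from Rbpj, a gene of wide expression. The 8 glial markers summed to 872, 802, 852 and 726 CPM, with most UMIs from the sodium channel gene Scn7a at 463, 449, 478 and 421 CPM. Scn7a was itself higher in these nuclei than in all other nuclei kept (ratio 7.09), so this sum does not measure glial transcripts. The epicardial list summed to 28.4, 43.9, 27.6 and 65.0 CPM with most UMIs from Wt1. The rule caps Wt1, so this sum is partly fixed by the rule. Of the adipocyte list Ucp1 was at 0. A doublet caller marked 13.4%, 12.99%, 3.93% and 8.62% of the fibroblast nuclei, more in each sham library than in either RVVO library. Of all nuclei kept it marked 14.9%, 13.1%, 7.35% and 11.4%, in the same order. The number marked in a library was set by its number of barcodes (15568, 15430, 8700 and 13392), so these shares do not compare the groups. The marked nuclei were kept, and the counts below are also given without them where a call changed.

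Clustering of the 5566 nuclei gave 11 subclusters, of which 5 were led by genes of other cell types. Subcluster 5 (484 nuclei) was led by endothelial genes such as Cyyr1, Zfp366 and Flt1, and made up 12.02%, 8.44%, 6.03% and 8.56% of the fibroblast nuclei. Subcluster 7 (260) was led by the cardiomyocyte genes Mhrt and Rbm20, subcluster 9 (126) by the neural and glial genes Csmd1, Cadm2 and Kcna1, and subcluster 10 (94) by the leukocyte genes Dock2 and Ptprc. Subcluster 11 (41) was led by Opcml and Wt1os and occurred only in sham 2 (17 nuclei) and RVVO 2 (24 nuclei). Subcluster 3 (876 nuclei), the one of lowest depth, was not counted among these 5, although genes of heart muscle such as Hrc, Cox8b and Cox6a2 were among its 10 leading genes and its cardiomyocyte markers summed to 37968, 23902, 36544 and 31294 plain CPM, beside 34348, 27056, 36567 and 34298 in subcluster 7. Without the 5 subclusters 4561 nuclei remained, without subcluster 3 as well 3685, and the results were repeated on both sets. Subcluster 6 (346 nuclei) was not counted among the 5 either, although the pericyte gene Abcc9 was among its 10 leading genes. Its 8 pericyte markers summed to 5507, 5725, 5775 and 4510 plain CPM, as high as the 5128, 6257, 5350 and 3894 CPM of pericyte nuclei, against 367, 289, 267 and 269 in subcluster 1. Without it and the 5 subclusters 4215 nuclei remained, on which 11 genes were called, all 11 among the 13 of the full set given below, and the interferon list had a median log2 fold change of -1.41. That repeat was added after its leading genes were seen.

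The libraries also differed in sex, which the labels do not give. Xist, the RNA that silences an X chromosome in female cells, stood at 1849 and 1936 TMM-normalised CPM (CPM after edgeR's trimmed-mean scaling, the scale of all levels from here on unless plain CPM is named) in the sham fibroblasts and at 0.828 and 0.823 in the RVVO fibroblasts. The Y-linked genes Uty, Eif2s3y and Kdm5d had no UMI in either sham library and stood at 266 and 250, 119 and 135, and 59.6 and 58.3 CPM in the RVVO libraries. Against a floor of 3 UMIs over the sham group these were at least 754-fold, 376-fold and 173-fold higher. Ddx3y, also on the Y chromosome, had 1 UMI in the sham group. Tsix, the antisense partner that overlaps Xist, stood at 270 and 282 CPM in sham and at 0.414 and 0.329 CPM in RVVO, and reads of that pair cannot be told apart without strand. Sham nuclei were thus female and RVVO nuclei male by these transcripts in every library, and sex and operation cannot be told apart below.

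The first comparison asked whether fibroblasts made up more of the RV nuclei after volume overload. Their share was 8.27% and 11.5% of the nuclei kept in the sham libraries and 13.3% and 13.7% in the RVVO libraries. Both RVVO shares were above both sham shares, by 3.61 percentage points between the means, but the sham libraries differed by nearly as much, and a two-sided exact permutation test of 2 against 2 libraries gave p = 0.333, the smallest its 6 arrangements allow. The order was not the same under other countings, and the part of depth in it was not tested on its own. When every nucleus was thinned to 1000 UMIs and the floor of the rule lowered to 2, the shares were 9.67%, 13.5%, 13.4% and 13.3%, and the groups overlapped (difference 1.78 points, exact p = 1). Among barcodes with at least 1561 UMIs, the highest of the lowest depths of the 4 sets, they were 10.6%, 15.01%, 13.9% and 13.7% (difference 0.983 points, exact p = 1). With nuclei of under 1% Ryr2 as the denominator the difference was 8.17 points, and without the 5 subclusters led by other cell types the shares were 6.31%, 9.59%, 11.7% and 10.9%.

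**Figure D2:**
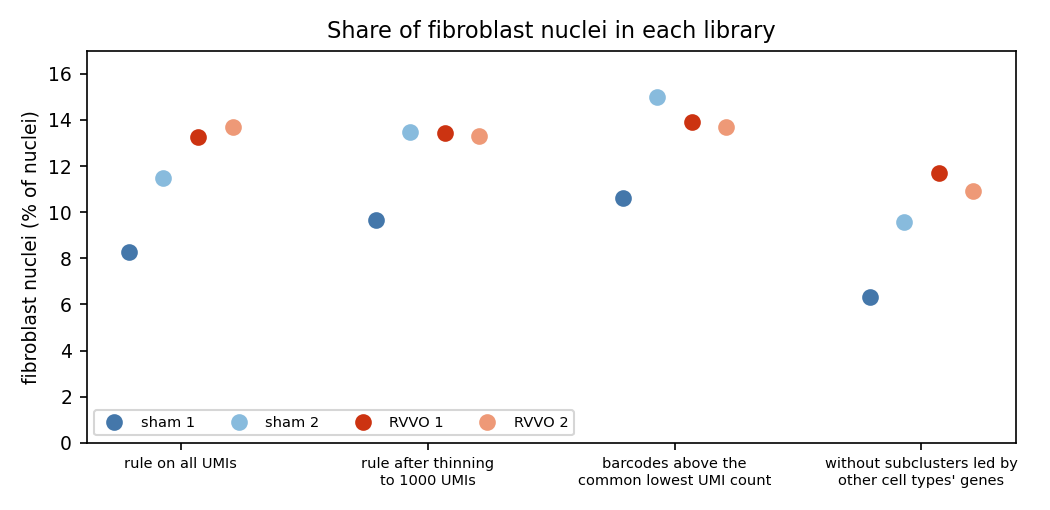
Fibroblast nuclei as a percentage of nuclei in each library, counted in 4 ways; each point is 1 library. Under the rule on all UMIs the RVVO points (13.3% and 13.7%) lie above the sham points (8.27% and 11.5%), and with the rule applied after thinning to 1000 UMIs with a floor of 2, sham 2 (13.5%) lies above both RVVO points (13.4% and 13.3%).

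Gene expression was compared between RVVO and sham fibroblasts on UMIs summed per library with edgeR's quasi-likelihood test. Of 13517 genes tested, 13 (0.0962%) passed an adjusted p of 0.05, of which 6 were higher in RVVO and 7 lower (0.0518%). At an unadjusted p under 0.05, 278 genes were higher (2.06%) and 379 lower (2.8%). The counts of each list in fibroblasts below are to be set beside these shares. The median log2 fold change over all genes tested was 0.01. With 1 library left out the fit called 41 genes without sham 1, 95 without sham 2, 16 without RVVO 1 and 30 without RVVO 2. In each of these fits 1 group is a lone library that is assumed to vary like the other group, so they are a weak measure of how well a call holds. The 13 called genes fell into 3 groups, the 6 sex-linked genes above, 5 genes of the interferon response, and Snx17 and Mpp6.

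Snx17 (chr5:31193227-31199143, plus strand, GRCm38), a sorting nexin that recycles membrane receptors from endosomes, stood at 20.3 and 12.4 CPM in sham and at 127 and 137 CPM in RVVO. Every RVVO value was several times every sham value, and the log2 difference was 3.04 ± 0.229 (SE, edgeR adjusted p = 0.00648). Snx17 was also called in endothelial nuclei (log2 difference 2.38, adjusted p = 0.00571), pericytes (2.54, 0.0412) and the sum of all other nuclei (3.06, 0.0277). Mpp6 (chr6:50110241-50198939, plus strand), a membrane-associated scaffold of the MAGUK family, stood at 35.4 and 36.8 CPM in sham and at 113 and 153 CPM in RVVO, a log2 difference of 1.88 ± 0.185 (SE, edgeR adjusted p = 0.0273). Both were also higher in both RVVO libraries in each of the 10 subclusters that all 4 libraries held, which are not independent of each other since they share libraries. Both genes overlap others on the opposite strand, and the sources used here do not state whether reads were counted by strand. Snx17 shares 204 bases with Eif2b4 and 163 bases with Zfp513, which stood at log2 fold changes of -0.01 and 0.23 (edgeR adjusted p = 0.999 for each). Mpp6 shares 10052 bases with Gsdme, the gasdermin gene named Dfna5 in the files. Dfna5 itself stood at 16.6 and 13.2 CPM in sham and 41.6 and 71.8 CPM in RVVO, a log2 difference of 1.95 ± 0.295 (SE) that did not pass (edgeR adjusted p = 0.162), and without strand reads of this pair cannot be told apart.

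Interferon-response genes were lower in RVVO fibroblasts. The called genes were Ifit1, which binds foreign 5′ RNA ends, Oasl2, a relative of the oligoadenylate synthetases, Stat2, the transcription factor that carries the type I interferon signal, Herc6, the mouse ligase for the ubiquitin-like Isg15, and Rnf213, a large interferon-induced ubiquitin ligase. Ifit1 stood at 36.5 and 29.0 CPM in sham and at 7.25 and 6.42 CPM in RVVO, and fell by 2.26 on the log2 scale (standard error 0.227, edgeR adjusted p = 0.0273). Stat2 fell from 245 and 242 CPM to 84.7 and 101 CPM, by 1.39 on the log2 scale (standard error 0.141, adjusted p = 0.0273). Oasl2 fell from 118 and 101 CPM to 36.6 and 39.4 CPM, by 1.52. The groups were apart in all 3 genes, and the sham libraries lay close together. Herc6 fell from 226 and 208 CPM to 79.5 and 89.4 CPM, by 1.36 (adjusted p = 0.0273 for both it and Oasl2). Rnf213 fell from 359 and 355 CPM to 138 and 158 CPM, by 1.27 (adjusted p = 0.0347). Snx17 and the sex-linked genes passed under all 18 alternatives run and Mpp6 under 17. The interferon calls held less often. None of them, Herc6 and Rnf213 included, passed without the marked doublets or with the rule applied after thinning to 1000 UMIs (floor of 2). Oasl2 passed in 15, Stat2 in 14, Rnf213 in 13, and Herc6 and Ifit1 in 11, and without the marked doublets, without RVVO 1, or with the rule applied after thinning to 1000 UMIs (floor of 2), no gene of the interferon list passed. The list's median log2 fold change in these 3 settings was -1.31, -1.26 and -1.48, with 18, 20 and 20 of its 22 genes lower at an unadjusted p under 0.05.

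The rest of the interferon-stimulated list had lower values too. Of its 22 genes tested, 3 were called lower and none higher, 19 were lower at an unadjusted p under 0.05 against the 2.8% of all genes, and 20 had both RVVO values below both sham values, against 15.7% of all genes tested (16.6% had both RVVO values above). The list's median log2 fold change was -1.39, beside 0.01 for all genes. DESeq2, run as an alternative, called 14 of the 21 it could adjust, all lower, against 0.409% of all genes it could adjust. Bst2, the membrane protein that tethers budding virus, stood at 93.9 and 88.5 CPM in sham and at 21.9 and 39.5 CPM in RVVO. Irf7, the regulator that amplifies interferon production, stood at 22.8 and 20.7 CPM and at 4.97 and 7.74 CPM. In both genes the groups were apart, and RVVO 2 was above RVVO 1. Isg15, the ubiquitin-like modifier, stood at 20.8 and 13.01 CPM in sham and at 3.52 and 4.94 CPM in RVVO, and the RNA sensor gene Ddx58 at 114 and 119 CPM and at 62.9 and 64.9 CPM. None of these 4 passed the adjusted threshold (adjusted p between 0.155 and 0.244). The exceptions were Mx1 (log2 fold change -0.76) and Ifi27 (-0.18), which did not reach an unadjusted p of 0.05, and Ifi204, a DNA sensor of the p200 family, which stood at 35.4, 91.7, 102 and 88.3 CPM (log2 fold change 0.56) with sham 1 alone low. Genes outside the list that are known to respond to interferon were also among the uncalled genes with the largest decreases. These were Gbp4 (89.1 and 49.6 against 9.52 and 28.8 CPM), Nlrc5 (80.5 and 50.9 against 11.2 and 26.2 CPM), Gbp7 (205 and 129 against 32.5 and 78.4 CPM) and Gvin1 (64.2 and 45.8 against 11.4 and 26.0 CPM), in each of which sham 1 was the highest library and RVVO 1 the lowest.

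**Figure D3:**
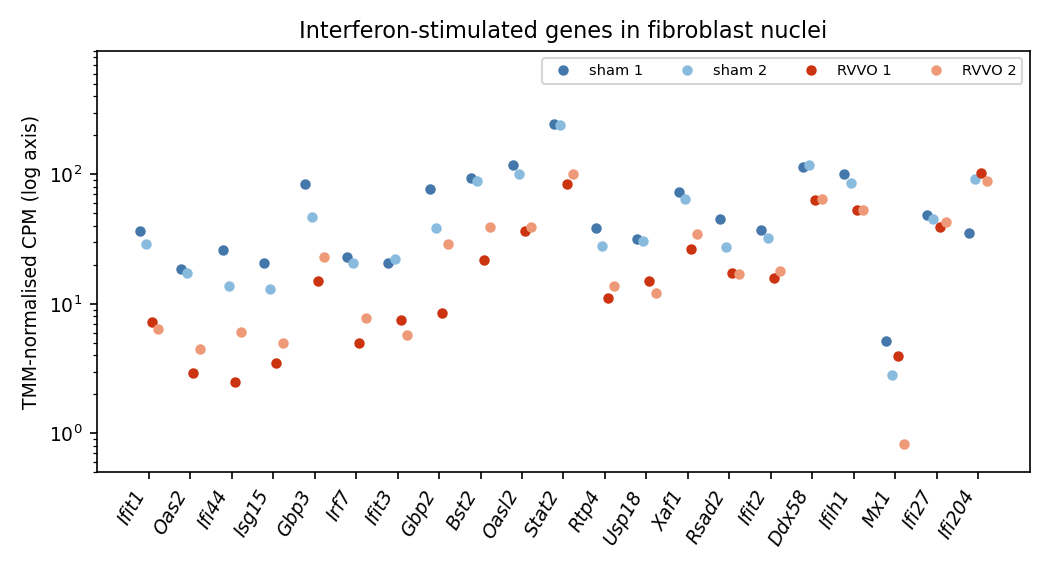
TMM-normalised CPM (log axis) of interferon-stimulated genes tested in fibroblast nuclei, ordered by log2 fold change of RVVO over sham; each point is 1 library. In every gene shown except Mx1 and Ifi204 both RVVO points lie below both sham points, and Ifi204, at the right end, has a single low point, sham 1.

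The upstream sequence of these genes is shown because factors of the Stat and Irf families bind a paired element of the interferon response. The letters GAAANNGAAA, or TTTCNNTTTC where the element lies on the other strand, were searched on both strands in the 250 bases before each RefSeq start (build GRCm38.p6). They occurred before 8 of the 15 genes of the list that had an entry, against 3.26% of the 9956 tested genes with an entry and 2.98% of all 32851 starts of the same length. Overlapping matches were counted separately. Stretches around the matches are given 5′ to 3′ on the strand of the gene, with the matched letters in capitals. They lie at chr19:34640760-34640838 (Ifit1, plus strand), chr10:128270251-128270310 (Stat2, plus strand), chr4:156200850-156200921 (Isg15, minus strand) and chr8:71537562-71537627 (Bst2, minus strand).
Ifit1: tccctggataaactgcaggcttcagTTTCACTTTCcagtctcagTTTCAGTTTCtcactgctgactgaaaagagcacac
Stat2: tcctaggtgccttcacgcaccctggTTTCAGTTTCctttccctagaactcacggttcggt
Isg15: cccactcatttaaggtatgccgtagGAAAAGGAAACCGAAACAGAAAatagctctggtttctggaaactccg
Bst2: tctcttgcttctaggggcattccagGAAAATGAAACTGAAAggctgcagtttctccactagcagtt
Isg15 held 3 matches and Bst2 2, overlapping by the letters they share, and Ifit1 held 2 apart from each other. Oasl2, Irf7, Ddx58, Herc6 and Rnf213 held none in this window, which says only that these letters are not there.

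The same list had lower values in the other nuclei. In endothelial nuclei 21 genes of the list were tested, 11 were called lower, against 0.221% of the 13145 genes tested there, and the median log2 fold change was -1.64. In pericyte nuclei the 21 tested had a median of -1.60 with none called by edgeR (0.0191% of 10488 genes were called lower) and 19 lower at an unadjusted p under 0.05 (2.62% of all genes). In the sum of all other nuclei the 22 had a median of -1.52 with none called (0.0114% of 17584 genes were called lower) and 20 lower at an unadjusted p under 0.05 (5.89% of all genes). Herc6 stood at 752 and 597 CPM in sham and 174 and 166 CPM in RVVO endothelial nuclei, beside 226 and 208 and 79.5 and 89.4 CPM in fibroblasts. Bst2 stood at 258, 220, 59.6 and 76.3 CPM in endothelial nuclei. The change in fibroblasts was compared with that in endothelial nuclei in a single fit with an interaction term. Of the 14096 genes tested this way 1 was called (0.00709%), and no gene of the list was (median difference 0.04, 4 of 22 at an unadjusted p under 0.05, against 7.23% of all genes). Against pericytes 3 of 12862 genes were called (0.0233%), and again no gene of the list was (median difference 0.23, 2 of 22, against 6.81% of all genes). Without the 5 subclusters led by other cell types the list kept a median of -1.38, with 2 of 21 genes called and 18 at an unadjusted p under 0.05. The summed plain CPM of the list was lower in both RVVO libraries in each of the 10 subclusters, for example 1479 and 1363 in sham and 615 and 764 in RVVO in subcluster 1.

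Of the matrix genes none was called in the main edgeR fit or by DESeq2. Without the filter on low counts edgeR called 6 of them, when it called 274 of all 20196 genes. These were Dcn, Lum, Col1a1 and Timp1, which were higher, and P4ha1 and Agrn, which were lower. Their edgeR adjusted p values in that fit lay between 0.000423 and 0.0222, and those given below are from the main fit. Without sham 1 the log2 fold change of P4ha1 was -1.10. Among the 15 proteoglycan genes tested, 5 were higher at an unadjusted p under 0.05 and none was lower, against 2.06% and 2.8% of all genes. The median log2 fold change was 0.24. The median was 0.18 without the marked doublets, 0.16 without the 5 subclusters led by other cell types and 0.12 without subcluster 3 as well. Decorin (Dcn), the collagen-binding proteoglycan, stood at 881 and 951 CPM in sham and at 1201 and 1488 CPM in RVVO, a log2 difference of 0.55 ± 0.162 (SE, edgeR adjusted p = 0.735). Its neighbour lumican (Lum), which also binds fibrils, stood at 77.9 and 87.5 CPM and at 115 and 175 CPM (0.81 ± 0.210 SE, adjusted p = 0.613). In both genes the 2 groups were apart and RVVO 2 was the highest. Prelp (log2 fold change 0.61), biglycan (Bgn, 0.49) and versican (Vcan, 0.38) were the other 3, while the glypican gene Gpc6, the member with most UMIs, ranged from 3049 to 4467 CPM with both extremes in the sham group. Plain CPM of Dcn was higher in both RVVO libraries in 10 of 10 subclusters, that of Lum was higher in both in 7 and lower in both in 1, and the sum of the proteoglycan list was higher in both in 3.

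Fibrillar collagens did not move together. The 9 genes of the list had a median of 0.01 on the log2 scale, and of 0.15 without the 5 subclusters led by other cell types. Col1a1 stood at 154 and 165 CPM in sham and at 169 and 322 CPM in RVVO, so the larger mean came mostly from RVVO 2 (log2 difference 0.62 ± 0.278 SE, edgeR adjusted p = 0.999). Col1a2 stood at 257 and 316 CPM and at 349 and 444 CPM (0.47, adjusted p = 0.992). Col3a1, the type III chain, stood at 765, 843, 834 and 1289 CPM, and its groups overlapped. Col24a1 was the lowest of the list at a log2 fold change of -0.78. The elastic and matricellular genes had a median of 0.17 over 26 tested, with elastin (Eln) at 515, 563, 381 and 513 CPM. The 17 basement membrane genes had a median of 0.04, with Lama2, a laminin chain, at 2757, 2501, 3176 and 2496 CPM, and with agrin (Agrn) at 36.8 and 23.8 against 16.4 and 17.1 CPM (log2 fold change -0.84, edgeR adjusted p = 0.750). Of the 18 collagen processing genes, P4ha1, a subunit of the enzyme that hydroxylates collagen prolines and a known hypoxia target, stood at 281 and 495 CPM in sham and at 225 and 242 CPM in RVVO, with sham 2 far above the rest (log2 fold change -0.74, adjusted p = 0.900). The crosslinking enzyme Lox stood at 4.85 and 3.39 against 6.004 and 9.88 CPM. Of the 16 proteases and inhibitors Timp1 had the highest log2 fold change, 1.96, on 8, 4, 18 and 44 UMIs.

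**Figure D4:**
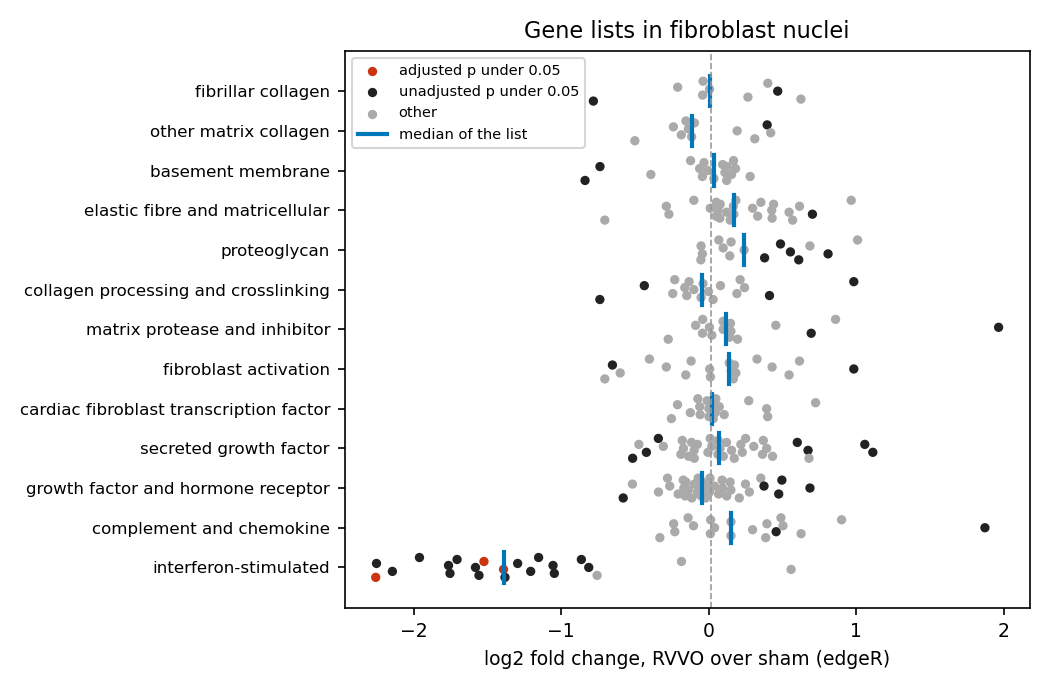
Log2 fold change of RVVO over sham (edgeR) of each gene tested in 13 gene lists in fibroblast nuclei, with the list's median as a bar and the median of all genes tested (0.01) as a dashed line; colours mark adjusted and unadjusted p under 0.05. The interferon list (median -1.39) lies to the left, and the matrix, signalling and transcription factor lists have medians between -0.12 and 0.24.

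None of the 19 activation genes tested was called, with Lox higher and Meox1 lower at an unadjusted p under 0.05, and neither at that level without the marked doublets or without the 5 subclusters led by other cell types. They had a median log2 fold change of 0.14, which became -0.05 without the 5 subclusters led by other cell types. Postn stood at 127, 90.3, 109 and 134 CPM, and the groups overlapped (log2 difference 0.17 ± 0.196 SE, edgeR adjusted p = 0.999). Acta2 stood at 76.8, 24.1, 58.2 and 41.8 CPM (0.01 ± 0.471 SE), with both extremes in the sham group, and Fn1, fibronectin, at 87.9, 110, 87.4 and 138 CPM (0.18). In nuclei thinned to 1000 UMIs the share with at least 2 Postn UMIs was 1.60%, 0.851%, 1.28% and 1.79%, against 0.203%, 0.176%, 0.0776% and 0.335% of endothelial nuclei. Cthrc1, a gene of strongly activated fibroblasts, had 3, 6, 0 and 9 UMIs and was not tested. The 21 transcription factors of the cardiac fibroblast lineage had a median of 0.02 with none at an unadjusted p under 0.05, and Tcf21 had a log2 fold change of 0.10. With standard errors of 0.471 for Acta2 and 0.233 for Fn1, changes of a fair size in either direction could not be seen.

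Fibroblast markers outside the rule had mostly higher values. Of 15 tested, 5 were higher and 1 lower at an unadjusted p under 0.05, against 2.06% and 2.8% of all genes. None was called, and the median was 0.35. The same list had medians above 0 in other nuclei too. In endothelial nuclei the median was 0.25, with 7 of 15 higher at an unadjusted p under 0.05 (1 called). Of all genes tested there, 605 of 13145 were higher at that level (13 called higher). In pericytes the median was 0.27 with 2 of 14 higher (294 of all 10488 genes). In the sum of all other nuclei the median was 0.20 with 0 of 15 higher (748 of all 17584 genes). Gsn stood at 799 and 1101 CPM in sham and at 1482 and 1959 CPM in RVVO, a log2 difference of 0.86 ± 0.215 (SE, edgeR adjusted p = 0.578), and DESeq2 called it. Mgp, the inhibitor of calcification, stood at 313 and 280 CPM and at 389 and 610 CPM (0.76, adjusted p = 0.728). The other 3 were Lum, Dcn and Col1a2. The 1 lower gene was Pdzrn3, a ubiquitin ligase, at 739 and 626 against 478 and 562 CPM (-0.39, adjusted p = 0.999). Of the genes that mark or chose the nuclei, Pdgfra stood at 534, 543, 630 and 613 CPM, C1qtnf7 at 541, 583, 386 and 408 CPM, and Negr1 at 989, 923, 1277 and 691 CPM.

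Secreted factors and receptors were split in direction. At an unadjusted p under 0.05, 2.06% of all genes were higher and 2.8% lower. Of 36 secreted growth factors and binding proteins tested none was called, 4 were higher and 3 lower at an unadjusted p under 0.05, and the median was 0.07. Igfbp3, which binds insulin-like growth factors, stood at 54.5 and 38.9 CPM in sham and at 112 and 81.5 CPM in RVVO (log2 difference 1.06 ± 0.224 SE, edgeR adjusted p = 0.433), and DESeq2 called this gene alone of the list. Its relatives Igfbp4 (0.60) and Igfbp6 (0.67) were also higher in both RVVO libraries. Fgf10, a mesenchymal growth factor, stood at 14.6 and 16.0 CPM and at 42.4 and 24.4 CPM (1.11, adjusted p = 0.613). Lower were the platelet-derived growth factor gene Pdgfd (348 and 224 against 188 and 211 CPM, -0.52), the semaphorin Sema3c (139 and 128 against 98.6 and 99.95 CPM, -0.42) and Bmp6 (-0.34). Of these 3 decreases 1 was still at an unadjusted p under 0.05 without the marked doublets and none without the 5 subclusters led by other cell types, where Pdgfd stood at -0.14 and -0.35. Igf1 stood at 114, 95.8, 166 and 105 CPM, and the macrophage growth factor genes Csf1 at 52.8, 53.9, 65.0 and 59.3 CPM and Il34 at 62.0, 69.2, 77.6 and 42.5 CPM. Of 41 receptors tested none was called, and 4 were higher and 1 lower at an unadjusted p under 0.05 (median -0.05). Npr3, the clearance receptor of natriuretic peptides, stood at 40.3 and 25.1 CPM in sham and at 56.9 and 47.1 CPM in RVVO (0.69, adjusted p = 0.948). Ddr1, a collagen receptor, and Il11ra1, the interleukin 11 receptor, had log2 fold changes of 0.50 and 0.47, and the collagen-binding integrin Itga1 one of -0.58. Without the marked doublets no receptor was higher at an unadjusted p under 0.05, and without the 5 subclusters 2 were, and Itga1 stood at -0.34 and -0.38 (edgeR unadjusted p = 0.150 and 0.0968). The angiotensin receptor Agtr1a stood at 35.7, 34.9, 48.0 and 37.5 CPM. Of 19 complement and chemokine genes none was called and 2 were higher at an unadjusted p under 0.05 (median 0.15). C3 ranged from 10.3 and 36.4 CPM in sham to 35.2 and 141 CPM in RVVO with overlap. C7 stood at 49.96, 59.2, 94.4 and 28.2 CPM, the RVVO libraries lying on either side of sham.

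Other lists gave no calls. The median was 0.24 for the 20 immediate early genes, 0.03 for the 13 imprinted growth genes and 0.35 for the 12 genes of dividing cells, none with a member at an unadjusted p under 0.05. The median of the dividing-cell list was -0.08 without the marked doublets and -0.06 without the 5 subclusters led by other cell types, in which 7 of its genes were tested. Mki67, the proliferation antigen, stood at 3.43, 5.47, 4.97 and 6.26 CPM, and Top2a at 2.57, 8.86, 6.83 and 7.25 CPM. In nuclei thinned to 1000 UMIs, 0.0940%, 0.243%, 0.275% and 0.289% of fibroblasts had at least 2 UMIs of the dividing list, below the 0.365%, 0.351%, 0.543% and 0.870% of endothelial nuclei. Markers of other cell types differed in level too, and none was called by edgeR, while DESeq2 called Flt1, Kcna1 and Gfra3, all lower. Of all genes DESeq2 called 0.409% lower, and in edgeR 2.8% were lower and 2.06% higher at an unadjusted p under 0.05. Of 7 glial markers tested 4 were lower at an unadjusted p under 0.05 (median -1.05). Without the marked doublets 4 were still lower (median -1.12), and without the 5 subclusters led by other cell types the 4 that could be tested had a median of 0.10. Of 10 endothelial markers 3 were lower (median -0.29), with Flt1 at 243 and 222 against 133 and 141 CPM, and the median was 0.02 with none lower without the marked doublets, and -0.20 with 1 lower without the 5 subclusters. Cadm2 and Zfp366, both among the uncalled genes with large decreases (log2 fold changes of -1.52 and -1.66), lead subclusters 9 and 5, and stood at -1.37 and -1.75 without the 5 subclusters and at -1.67 and -1.01 without the marked doublets. Of 8 pericyte markers 1 was lower (median -0.28, and -0.06 with none lower without the marked doublets), and of 7 smooth muscle markers 2 were lower (median -0.21). Of 12 macrophage markers 2 were higher, the scavenger receptor Cd163 (1.32) and the lysozyme gene Lyz2 (10.6, 12.3, 18.2 and 49.7 CPM). The 12 cardiomyocyte markers had a median of 0.11 with none at an unadjusted p under 0.05. The part of these transcripts in the results above was not tested beyond the repeats given.

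The change in 3 genes differed between fibroblasts and other nuclei by the interaction test. Mpp6 stood at 34.2 and 35.8 CPM in sham and at 109 and 146 CPM in RVVO fibroblasts, against 36.6, 38.9, 41.4 and 55.1 CPM in endothelial nuclei, and its change was larger in fibroblasts by 1.51 on the log2 scale (standard error 0.144, edgeR adjusted p = 0.0184). Against pericytes the difference was 1.45 (adjusted p = 0.0123). Adra1a, an adrenergic receptor of the alpha 1 class, stood at 58.3, 62.5, 56.0 and 51.8 CPM in fibroblasts and at 21.6, 18.4, 47.0 and 77.2 CPM in pericytes, a difference in change of -1.83 (standard error 0.294, adjusted p = 0.00964). In fibroblasts alone its log2 fold change was -0.15, and it was -0.48 without the marked doublets, -0.55 without the 5 subclusters led by other cell types and -0.64 without subcluster 3 as well, uncalled in each (edgeR adjusted p between 0.547 and 0.999). Pdzrn3 stood at 725, 621, 470 and 548 CPM in fibroblasts and at 384, 314, 405 and 610 CPM in pericytes, a difference of -0.93 (adjusted p = 0.0293). Without 1 library the fit called between 2 (sham 1 left out) and 116 genes (RVVO 2 left out) against endothelial nuclei, and between 3 (RVVO 2) and 18 (sham 1) against pericytes. Of the 7 alternatives run, the Mpp6 call against endothelial nuclei held in all 7. Against pericytes the calls of Mpp6 and Adra1a were lost in 3 (thinned nuclei, without sham 2, without RVVO 2), and that of Pdzrn3 in these and with DESeq2 size factors. Fibroblasts and the other nuclei of a library come from the same sample, which the fit took into account as a block.

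The remaining subclusters differed in their leading genes, which come from the clustered values and are a description. Subcluster 1, with 1543 nuclei, was led by the peptidases Lvrn and Mme and by Bmper, a modulator of bone morphogenetic proteins. Subcluster 2, with 900 nuclei, was led by Adgrd1, Cmah and Pi16, and held Pi16 at 367, 494, 469 and 349 plain CPM against 25.1, 47.7, 53.5 and 42.8 in subcluster 1. Subcluster 3 had the lowest median depth, 1791.5 UMIs, and besides the muscle genes above was led by genes of the respiratory chain such as Cox17 and Ndufa13. Subcluster 4, with 692 nuclei, was led by the mechanosensitive channel Piezo2 and the microfibril gene Mfap4, and held Igfbp3 at 259, 127, 290 and 237 plain CPM. Subcluster 6, with 346 nuclei, was led by Lin7a and the chloride channel gene Ano1, with Abcc9 as given above, and held Il34 at 516, 608, 620 and 516 plain CPM. In subclusters 1 to 4, Il34 was at most 14.3 plain CPM. Subcluster 8, with 204 nuclei, was led by Thsd7b and Sntg1. Over all fibroblasts Sntg1, a syntrophin, stood at 129 and 119 CPM in sham and at 252 and 222 CPM in RVVO, a log2 difference of 0.94 ± 0.136 (SE) that was not called (edgeR adjusted p = 0.144). Subcluster 1 made up 18.6%, 24.6%, 38.4% and 29.6% of the fibroblast nuclei. Subcluster 4 (8.85%, 12.8%, 13.7% and 13.5%) also had a higher share in both RVVO libraries. Subclusters 3 (23.8%, 19.0%, 8.23% and 12.4%) and 9 (4.10%, 2.69%, 1.28% and 1.33%) had a lower share in both. The nuclei of the groups were thus spread differently over the subclusters. In the clustering centred within each library the cluster led by Lvrn and Mme made up 26.7%, 28.1%, 29.3% and 30.02%. Centring takes out differences between libraries whatever their source, so the centred shares do not bear on the gap in subcluster 1.

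**Figure D5:**
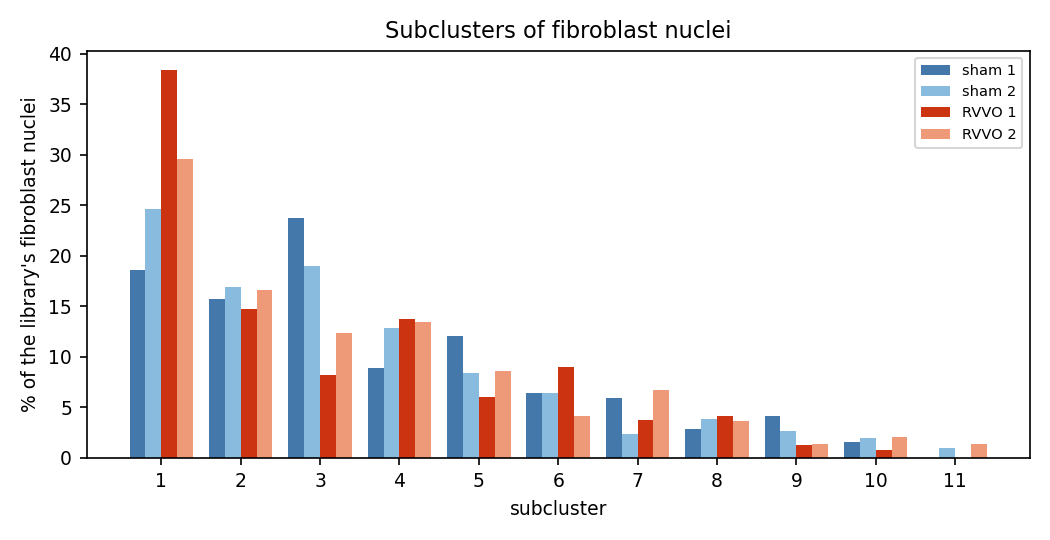
Share of each library's fibroblast nuclei (% on the vertical axis) in the 11 subclusters, each given by its number; each bar is 1 library. Subcluster 1 holds 18.6% and 24.6% of the sham and 38.4% and 29.6% of the RVVO nuclei in this clustering, which was not centred within libraries, and subcluster 11 is present in sham 2 and RVVO 2 alone.

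Fibroblast states described elsewhere were looked for by their gene lists. After thinning to 1000 UMIs, 50.9%, 45.7%, 43.8% and 48.6% of fibroblast nuclei had at least 2 UMIs of the adventitial state list, against 46.8%, 39.0%, 38.9% and 38.2% of endothelial nuclei (two-sided exact p = 0.667 between sham and RVVO fibroblasts). The gene of the list with most UMIs was Fbn1 in fibroblasts and Limch1 in endothelial nuclei. For the interstitial state list the shares were 54.0%, 56.6%, 59.4% and 57.1%, with 40.1%, 31.2%, 42.2% and 35.8% in endothelial nuclei (exact p = 0.333, the smallest possible). For the Wif1 state list they were 4.04%, 5.90%, 5.49% and 7.40%, with 0.243% to 0.870% in endothelial nuclei (exact p = 0.667), although Wif1 itself had only 2, 5, 4 and 3 UMIs. Among the members of the adventitial list, Pi16 stood at 111, 156, 132 and 95.3 CPM with the groups overlapping.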

How the data were processed

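Nuclei of 4 libraries (2 sham, 2 RVVO) were analysed. The authors deposited 1 matrix of UMI counts per library, with whole-number counts per gene and barcode and no normalisation. The processing notes name Cell Ranger 3.0.1, STAR, Seurat 3.0.2 and the build GRCm38 (mm10), whereas the matrix file header names Cell Ranger 5.0.0. The sources used here do not state whether reads in introns or on the other strand were counted. The total per library was 55516713, 51010039, 64739206 and 63422784 UMIs. Replicate pairs differed beyond sampling noise (chi-square per degree of freedom 8.67 and 9.93), so no library was taken as a duplicate.

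The members and gene lists were chosen with earlier results of these data known. UMI counts were summed per library over the fibroblast nuclei and tested with edgeR 4.0.16 (quasi-likelihood, TMM scaling, filterByExpr, Benjamini-Hochberg adjustment), and the interaction fits also took the library as a block. DESeq2 1.42.0 and limma 3.58.1 (voom) gave alternatives. Levels are given per gene and are not scaled by length, so they do not rank genes, and a list's gene with most UMIs is named only as that. Shares of nuclei were compared by exact permutation tests. Doublets were marked by a caller with simulated doublets at 0.8% per 1000 barcodes and kept. Clustering used scikit-learn 1.9.0 and leidenalg 0.10.2, and a clustering centred within each library gave 10 clusters. Coordinates are those of GENCODE M21 on GRCm38, in which 27722 of the 27998 identifiers were found. The edgeR script was tested on simulated data of the same size, in which false calls exceeded the nominal rate and many of the smaller changes were missed.

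Named were the marker and rule genes, the sex-linked genes, called genes (at most 12 per direction, Gm and Rik names left out), up to 10 uncalled genes per direction with an unadjusted p under 0.05, groups apart and a mean log2 CPM of at least 5, the 3 of most UMIs and the 2 extreme members of each list, 22 fixed genes, called interaction genes and the 5 genes of highest ratio to other nuclei. Other list members with an unadjusted p under 0.05, overlapping neighbours and genes given as examples were named after their values were seen. A few genes of the lists are not reported here by name.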

Additional observations from a re-analysis of the deposited data

Results flagged for a closer look

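Of the differences between nuclei types under the same contrast, 4 passed the interaction test. The change of Mpp6 from sham to RVVO was larger in fibroblasts than in endothelial nuclei by 1.51 on the log2 scale and larger than in pericytes by 1.45. The change of Adra1a differed between fibroblasts and pericytes by -1.83, with log2 fold changes of -0.15 in fibroblasts, 1.68 in pericytes and 1.20 in endothelial nuclei. The fibroblast value was -0.48 without the marked doublets and -0.55 without the 5 subclusters led by other cell types, and the interaction was not refitted on those sets. The change of Pdzrn3 differed between fibroblasts and pericytes by -0.93. With 2 libraries in each group no single library could be tested for standing apart.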

How the results depend on the processing

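All 13 calls were shared by the fit with the replicate number as a block, which gave 15 calls and added Nppa and C3. The numbers were not taken to pair the samples, since same-numbered libraries had deviations with a correlation of 0.0106. Without the filter on low counts 274 genes were called, with DESeq2 60 (11 higher), after the rule on thinned nuclei 8, without marked doublets 8, and with 1 library left out between 16 and 95. Interaction calls against endothelial nuclei were 16 on thinned nuclei, 3 with voom and 2 to 116 with 1 library left out, and against pericytes 0 on thinned nuclei (edgeR, with 507 genes at an unadjusted p under 0.05, and 4 genes called with voom on all UMIs) and 3 to 18. The median of the secreted factors was -0.00548 on thinned nuclei, -0.025 without the 5 subclusters led by other cell types and the one of low depth, and between -0.029 and 0.185 with 1 library left out. The adventitial share differed by 4.24 points without thinning, and by -4.73 to 0.493 with 1 library left out. The difference in fibroblast share was 2.01 to 5.21 points with 1 library left out. Of 89 genes fitted by name, 15 turned sign with 1 library left out, none of them called, and 12 of the 15 had a log2 fold change smaller than its standard error, such as Acta2 (-0.625 to 1.04) and C7 (-0.967 to 0.785). Among uncalled genes whose log2 fold change was larger than its standard error, it turned sign for Csf1 on thinned nuclei (-0.0254), and with 1 library left out for Mx1 (-2.20 to 0.0291), Igf1 (-0.00483 to 0.666) and Pi16 (-0.497 to 0.0274). In each case the cause was not tested. The alternatives without subclusters were chosen after seeing the data. Depth limits genes of few UMIs most, such as Timp1 and Mki67.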

Other observations

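Several uncalled genes outside the lists had both RVVO values above both sham values at an unadjusted p under 0.05. Apoe, the apolipoprotein of lipid transport, stood at 112 and 111 TMM-normalised CPM in sham and at 140 and 318 CPM in RVVO fibroblasts, and Cwc22, a splicing factor, at 36.8 and 34.5 CPM and at 40.4 and 112 CPM. In both genes RVVO 2 alone stood far above sham. Nt5e, the ecto-enzyme that makes adenosine, stood at 29.1 and 18.9 CPM in sham and at 52.2 and 38.4 CPM in RVVO. Acss3, a mitochondrial acyl-CoA synthetase, stood at 30.8 and 49.0 CPM and at 81.4 and 70.5 CPM. Ecm1, a secreted matrix protein, stood at 22.0 and 37.5 CPM and at 52.0 and 56.3 CPM. Their edgeR adjusted p values lay between 0.575 and 0.994.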
